A study of Homo sapiens with 4 samples.

Results

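The GNAS locus was described from every CpG of chromosome 20 between positions 58815000 and 58915000 of hg38, a stretch chosen by position so that it holds GNAS, its antisense gene GNAS-AS1 and all 5 of their promoters. The reference sequence has 2230 CpGs there. Of these, 1914 were listed in at least 1 of the 4 libraries and 1425 in all 4, out of 23269121 CpGs listed in all 4 libraries over chromosomes 1 to 22 and X. The number listed was 1703 for non-differentiated cells, 1627 with DMSO, 1726 with the DNMT1 inhibitor and 1770 with that of EED. Below, values given as 4 in a row follow this order.

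DNA of HUDEP-2 cells was sequenced after bisulfite conversion, over the whole genome. HUDEP-2 is an immortalized human line of erythroid precursors that matures towards red cells when its medium is changed. 1 library came from untreated, non-differentiated cells. The other 3 came from cells grown for 4 days in differentiation medium and then matured for 2 days, all with 0.1% DMSO as vehicle. They received DMSO alone, a DNMT1 inhibitor or an inhibitor of EED, each present from the preceding expansion stage on. The DMSO and non-differentiated libraries thus differ in both medium and vehicle, which cannot be told apart. DNMT1 copies methylation onto newly made DNA strands, and EED is a core subunit of Polycomb repressive complex PRC2. The labels give no dose and no compound name, and they describe the cells of both inhibitor groups as having more fetal hemoglobin and those of the other groups as making adult hemoglobin. With 1 library per group there is no replicate spread, so every interval below covers counting error only and every test compares 2 libraries, not 2 conditions.

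GNAS encodes the alpha subunit of the stimulatory G protein, which passes signals from hormone receptors to adenylyl cyclase and so raises cyclic AMP. Its locus is imprinted, meaning that some promoters carry methylation on the copy from 1 parent alone. The NESP promoter is normally methylated on the paternal copy, while the GNAS-AS1, XL and exon A/B promoters are normally methylated on the maternal copy, and the main promoter is normally free of methylation on both. A CpG that is methylated on a single copy in every cell reads near 50% in a bulk library. Neither the parental copy of a read nor expression was measured here.

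The 5 starts were taken from the GENCODE release 44 annotation, and each promoter was measured from 500 bp upstream to 500 bp downstream of its start. The NESP start, of the transcripts that encode the secretory protein NESP55, is at 58839748 on the plus strand, and its window is chr20:58839248-58840248. The GNAS-AS1 start, of a non-coding transcript on the minus strand, is at 58850903, with the window chr20:58850403-58851403. The XL start is at 58853266, with the window chr20:58852766-58853766. It is shared by 2 XL coding transcripts, it coincides with the first coding base of the extra-large G protein XLas, and the longest XL transcript starts 550 bp further upstream, at 58852716. The exon A/B start, of transcripts with an alternative first exon, is at 58889160, with the window chr20:58888660-58889660, and the most upstream transcript start of this group lies 747 bp before it, at 58888413. The main start, of the transcript that encodes Gs alpha itself, is at 58891421, with the window chr20:58890921-58891921.

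The sequences below, read 5′ to 3′ from the hg38 reference, show 300 bases at or near each promoter, outside annotated untranslated regions. The A/B and main stretches lie upstream of the promoter windows just given, so their levels are not those of the windows. Capitals mark the CpGs that were listed in all 4 libraries and read at least 35% methylated in the DMSO library. All other bases, including CpGs below 35% or not listed in all 4 libraries, are in lower case. The NESP stretch is chr20:58839418-58839717 (plus strand), just before the most upstream NESP transcript start. The GNAS-AS1 stretch is chr20:58850904-58851203 (minus strand), directly upstream of its start. The XL stretch is chr20:58853266-58853565 (plus strand), the first 300 bases of coding sequence. The A/B stretch is chr20:58888113-58888412 (plus strand), directly before the most upstream A/B start. The main stretch is chr20:58890436-58890735 (plus strand), coding sequence of an alternative first exon that ends before the main start.
NESP: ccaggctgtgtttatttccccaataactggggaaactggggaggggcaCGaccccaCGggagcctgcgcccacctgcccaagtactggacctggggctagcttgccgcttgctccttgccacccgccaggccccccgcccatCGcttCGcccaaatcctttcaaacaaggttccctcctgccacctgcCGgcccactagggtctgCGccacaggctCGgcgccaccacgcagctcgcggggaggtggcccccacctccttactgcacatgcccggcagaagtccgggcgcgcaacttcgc
GNAS-AS1: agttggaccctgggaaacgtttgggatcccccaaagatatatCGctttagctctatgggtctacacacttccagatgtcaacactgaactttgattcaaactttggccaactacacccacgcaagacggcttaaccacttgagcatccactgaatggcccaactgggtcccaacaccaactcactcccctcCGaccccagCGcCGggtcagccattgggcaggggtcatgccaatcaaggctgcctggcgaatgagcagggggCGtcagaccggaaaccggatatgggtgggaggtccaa
XL: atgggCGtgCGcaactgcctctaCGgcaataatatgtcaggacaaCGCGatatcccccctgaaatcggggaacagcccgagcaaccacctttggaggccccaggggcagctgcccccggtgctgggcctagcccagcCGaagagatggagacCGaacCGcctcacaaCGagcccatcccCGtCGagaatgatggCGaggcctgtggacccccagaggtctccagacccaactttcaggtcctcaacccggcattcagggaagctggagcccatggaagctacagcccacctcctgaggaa
A/B: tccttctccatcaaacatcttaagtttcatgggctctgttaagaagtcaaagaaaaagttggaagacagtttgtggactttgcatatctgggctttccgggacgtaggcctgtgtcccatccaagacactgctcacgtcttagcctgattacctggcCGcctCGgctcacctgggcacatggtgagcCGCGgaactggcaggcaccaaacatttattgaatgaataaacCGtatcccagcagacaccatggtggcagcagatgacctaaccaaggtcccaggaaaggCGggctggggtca
main: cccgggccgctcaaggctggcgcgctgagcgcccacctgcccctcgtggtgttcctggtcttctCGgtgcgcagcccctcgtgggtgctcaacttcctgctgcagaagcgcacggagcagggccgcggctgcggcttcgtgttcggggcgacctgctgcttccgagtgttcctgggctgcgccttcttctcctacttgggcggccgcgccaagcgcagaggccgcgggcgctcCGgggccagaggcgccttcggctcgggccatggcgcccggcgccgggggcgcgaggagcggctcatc
These stretches differ in how many of their CpGs are marked. In the NESP stretch all 7 of the CpGs listed in all 4 libraries are capitals, out of 20 in the reference. In the GNAS-AS1 stretch 5 of 8 are, in the XL stretch 12 of 16, in the A/B stretch 6 of 9 and in the main stretch 2 of 9. The NESP stretch read 50.0% in the non-differentiated, 60.2% in the DMSO, 19.2% in the DNMT1 inhibitor and 38.3% in the EED inhibitor library. The GNAS-AS1 stretch read 37.6%, 38.4%, 18.3% and 25.0% in the same order, and the XL stretch 56.0%, 58.9%, 25.8% and 58.5%. The A/B stretch read 51.2%, 44.3%, 11.0% and 57.7%, so the EED inhibitor library was below the DMSO library in the NESP and GNAS-AS1 stretches and above it in the A/B stretch, differences that were not tested. The main stretch read 9.48%, 13.3%, 0% and 12.7%, where 0 of 125 reads allows a level of up to 2.40%.

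Libraries were of similar mean depth over the locus as a whole, but not at each promoter. Over the CpGs that each library listed on its own, NESP had 431, 596, 722 and 891 reads. A/B had 736, 255, 274 and 545. Mean coverage of a CpG listed in all 4 libraries was 22.9 to 25.3 reads in the locus against 28.0 to 30.8 over the genome. Against the DMSO library, and relative to the genome, coverage of the locus differed by -0.01, 0.04 and -0.02 on the log2 scale in the non-differentiated, DNMT1 inhibitor and EED inhibitor libraries. Start methylation of marker genes did not separate erythroid from other blood genes. In the DMSO library the 6 testable erythroid markers had a median of 9.89%, from 0% to 76.6% for SLC4A1, an anion exchanger of the red cell membrane. The 6 markers of other blood lineages had a median of 18.05%, from 2.29% for CD14 upwards. Over the genome the 4 levels were 61.7%, 60.3%, 16.8% and 59.3%.

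The locus had more CpGs near 50% than the genome. Of the 1425 CpGs listed in all 4 libraries, 29.2% read between 35% and 65% in both the non-differentiated and the DMSO library and 29.6% with the EED inhibitor, against 14.1%, 14.7% and 14.5% of CpGs over the genome. In the DNMT1 inhibitor library the share was 14.4% in the locus and 14.0% over the genome. These shares are a description, since neighbouring CpGs lie on the same reads.

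At the NESP promoter, 27 of 52 CpGs were listed in all 4 libraries. It read 45.6% in the non-differentiated library (95% Wilson interval 40.6% to 50.7%, 364 reads over all CpGs), 61.4% in the DMSO library (56.9% to 65.7%, 464 reads), 25.2% in the DNMT1 inhibitor library (21.3% to 29.7%, 408 reads) and 55.7% in the EED inhibitor library (51.2% to 60.1%, 483 reads). The DMSO library was the highest and the DNMT1 inhibitor library the lowest, and the intervals of the DMSO and non-differentiated libraries did not overlap. Between 35% and 65% lay 18, 11, 6 and 18 of the 27 CpGs in the 4 libraries in that order. The difference between the DMSO and non-differentiated libraries was larger on 1 side of the start. Over the 9 CpGs upstream the levels were 45.1% and 47.6% in the non-differentiated and DMSO libraries, and over the 18 CpGs downstream they were 46.0% and 70.9%. Single CpGs were mostly higher in the DMSO library on both sides, 7 of 9 upstream and 15 of 18 downstream. The upstream CpGs at -452 and -396 bp from the start were lower with DMSO. They had the most reads of the 9 and so weighed most in the upstream level. This split was made after the values were seen and was not tested.

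At the GNAS-AS1 promoter, 27 of 47 CpGs were listed in all 4 libraries. The antisense transcript runs from here back through NESP, in the direction opposite to GNAS. Its promoter read 52.3% in the non-differentiated library (48.0% to 56.5%, 526 reads), 50.2% in the DMSO library (46.1% to 54.3%, 564 reads), 22.7% in the DNMT1 inhibitor library (19.5% to 26.2%, 604 reads) and 50.8% in the EED inhibitor library (46.6% to 55.1%, 535 reads). The DNMT1 inhibitor library stood below the other 3, whose intervals overlapped. Single CpGs ranged widely, from 11.8% to 96.2% in the DMSO library, with a median of 41.2%, and 15, 16, 4 and 13 of the 27 lay between 35% and 65%. Across these 27 CpGs the levels of the non-differentiated and DMSO libraries had a Pearson r of 0.83, given as a description because neighbouring CpGs share reads and both libraries share base composition.

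At the XL promoter, 30 of 41 CpGs were listed in all 4 libraries. It read 49.2% in the non-differentiated library (44.9% to 53.5%, 510 reads), 51.1% in the DMSO library (46.7% to 55.4%, 509 reads), 21.7% in the DNMT1 inhibitor library (18.5% to 25.2%, 586 reads) and 51.8% in the EED inhibitor library (47.5% to 56.0%, 529 reads). These averages near 50% did not come from CpGs near 50%. Between 35% and 65% lay 1 of 30 CpGs in the non-differentiated library, 3 with DMSO, 8 with the DNMT1 inhibitor and 2 with that of EED. Instead, 12 CpGs were at or below 20% in each of the non-differentiated, DMSO and EED inhibitor libraries and 15 were at or above 60% in each of them, leaving 3.

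High and low CpGs of the XL promoter lay in short runs beside each other. The CpG 47 bases downstream of the start read 83.3% in the non-differentiated, 84.2% in the DMSO, 53.3% in the DNMT1 inhibitor and 80.0% in the EED inhibitor library. The next one, 65 bases downstream, read 0%, 4.76%, 0% and 0%, from 17 to 21 reads in each library. The CpG 152 bases downstream again read 90.9%, 78.6%, 27.3% and 92.0%. Across the 30 CpGs the levels of the non-differentiated and DMSO libraries had an r of 0.98 and those of the DMSO and EED inhibitor libraries 0.97, so the same CpGs were high and low in each. With the DNMT1 inhibitor, the 12 low CpGs were all listed at 0% and the 15 high ones ranged from 20% to 66.7%. In the sequence of the XL stretch above, the capitals therefore fall in blocks with lower-case CpGs between them.

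**Figure D1:**
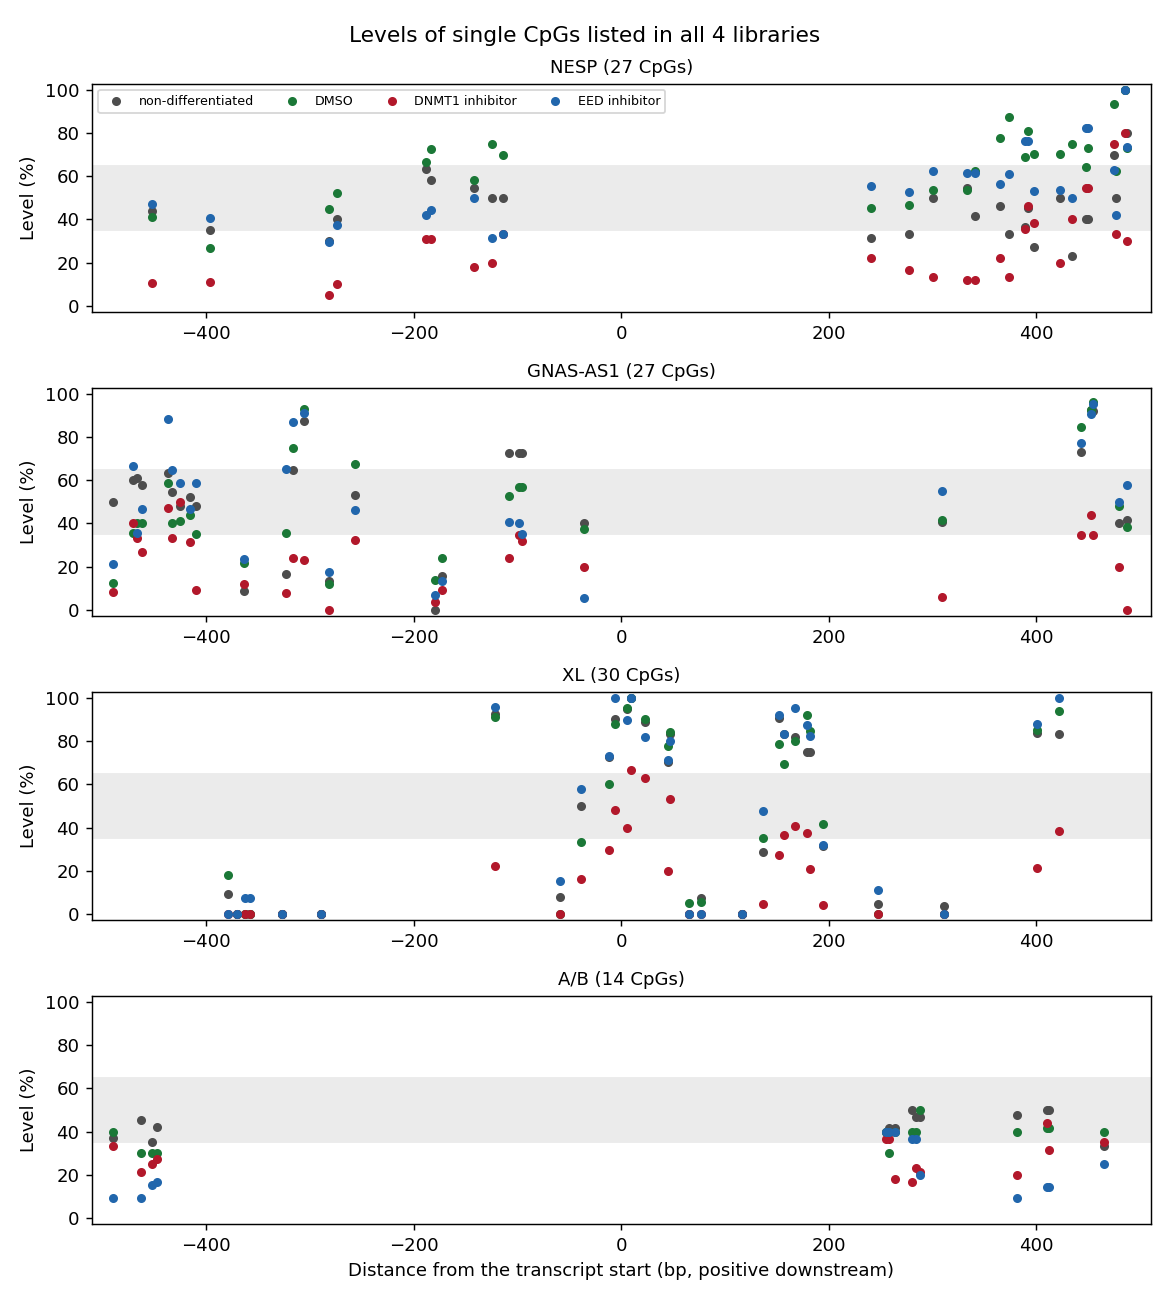
Each point is the methylation level in percent of 1 CpG in 1 library, against its distance in bp from the transcript start, for 4 promoters. The shaded band is 35% to 65%. At XL 27 of 30 CpGs lie at or below 20% or at or above 60% in the non-differentiated, DMSO and EED inhibitor libraries alike, whereas at A/B none of the 14 CpGs exceeds 50%.

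Around the longest XL transcript's start, 550 bp upstream, levels were lower. Over 21 CpGs listed in all 4 libraries the window of 500 bp on either side read 30.0% in the non-differentiated, 28.2% in the DMSO, 9.85% in the DNMT1 inhibitor and 30.1% in the EED inhibitor library. This window was added after the values and the annotation had been seen. Downstream, in the CpG island of the XL coding exon (chr20:58853776-58856491), 87 CpGs read 38.2%, 41.2%, 19.1% and 43.8% in the same order. There, 53, 59, 8 and 56 of the 87 CpGs lay between 35% and 65%, so mid-range CpGs were a larger share there than in the XL promoter window in the non-differentiated, DMSO and EED inhibitor libraries and a smaller one in the DNMT1 inhibitor library.

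At the exon A/B promoter, 14 of 112 CpGs were listed in all 4 libraries, all of them more than 250 bp from the start. It read 43.2% in the non-differentiated library (37.0% to 49.6%, 234 reads), 38.4% in the DMSO library (30.9% to 46.4%, 146 reads), 28.2% in the DNMT1 inhibitor library (22.2% to 35.01%, 188 reads) and 24.0% in the EED inhibitor library (18.4% to 30.8%, 179 reads). Here the EED inhibitor library was the lowest of the 4, with an interval that overlapped that of the DNMT1 inhibitor library and narrowly missed that of the DMSO library. Its 14 CpGs ranged from 33.3% to 50.0% in the non-differentiated, from 30.0% to 50.0% in the DMSO, from 16.7% to 43.8% in the DNMT1 inhibitor and from 9.09% to 40% in the EED inhibitor library, and 13, 10, 4 and 5 of them lay between 35% and 65%.

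Levels depended on which CpGs were listed. Over all CpGs that the EED inhibitor library listed on its own, NESP read 47.5% and XL 39.3%, against 55.7% and 51.8% over those listed in all 4 libraries. At A/B, over the CpGs each library listed on its own, 48, 23, 20 and 46 in number, the levels were 41.8%, 42.4%, 27.0% and 30.3%. Around the most upstream A/B start, a window added after the values were seen, 28 CpGs were listed in all 4 libraries and read 48.3% (44.6% to 51.9%), 47.1% (42.9% to 51.4%), 15.6% (13.1% to 18.5%) and 49.1% (44.6% to 53.7%). In this window the EED inhibitor library was level with the non-differentiated and DMSO libraries, and the DNMT1 inhibitor library was the lowest, from 466 to 715 reads per library.

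At the main promoter none of the 152 CpGs within 500 bp of the start was listed in any of the 4 libraries. The tables list only CpGs with at least 10 reads, and the nearest CpGs listed in all 4 libraries were 550 bp upstream and 1335 bp downstream. With the window widened to 1000 bp upstream and 500 bp downstream, 18 of 202 CpGs were listed in all 4 libraries, all of them upstream. The 6 CpGs within 500 bp of another annotated start, 119 bp before the main one, read 3.53%, 0%, 0% and 2.22%, from 85 to 135 reads per library, where the values of 0% allow up to 3.30% and 2.48%. The 18 CpGs of the widened window read 5.81% in the non-differentiated library (3.55% to 9.37%), 5.93% in the DMSO library (3.68% to 9.41%) and 5.76% in the EED inhibitor library (3.63% to 9.03%). In the DNMT1 inhibitor library 0 of 303 reads were methylated, which allows a level of up to 0.990%. The main promoter region was thus the least methylated of the 5 in every library, and its core was not measured.

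**Figure D2:**
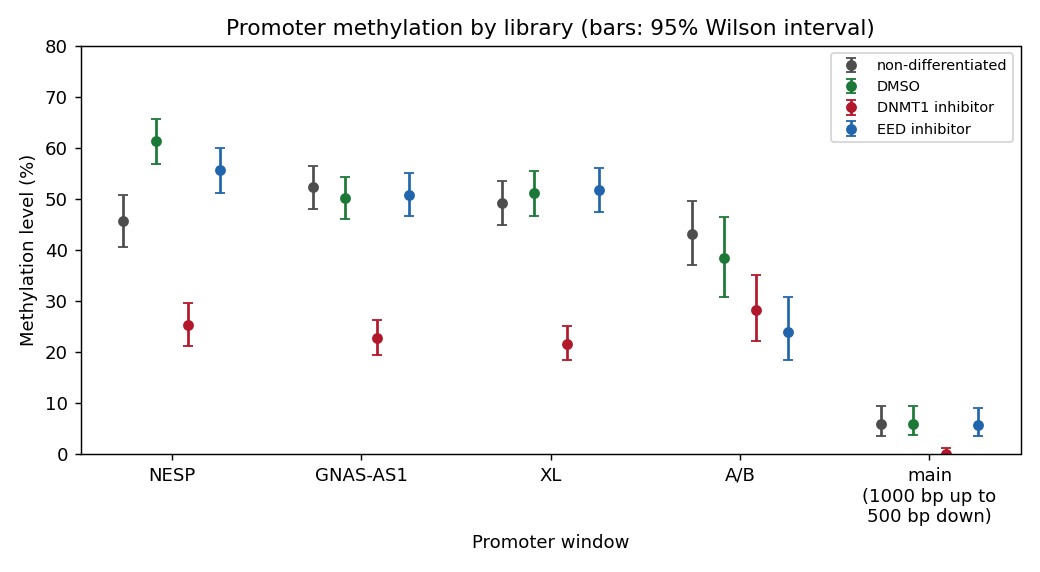
Points are methylation levels in percent of each promoter in each of the 4 libraries, with bars for the 95% Wilson interval, which covers counting error only. The DNMT1 inhibitor library is lowest at NESP, GNAS-AS1 and XL (21.7% to 25.2%), the EED inhibitor library is lowest at A/B (24.0%), and the widened main window is at or below 5.93% in every library.

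Each promoter was then compared between libraries by a two-sided Fisher's exact test on methylated and unmethylated reads, adjusted by the Benjamini-Hochberg method over all 180250 transcript start windows of the genome. A window was called when its adjusted p was under 0.01 and its difference at least 25 percentage points. Reads at neighbouring CpGs come from the same DNA fragments, so these p-values are too small. Both inhibitor comparisons share the DMSO library.

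NESP, GNAS-AS1 and XL fell with the DNMT1 inhibitor. NESP fell by 36.2 points against DMSO (Newcombe 95% interval of the difference -42.0 to -29.9, adjusted p 5.08e-27 by Fisher's exact test), and all 27 of its CpGs were lower. GNAS-AS1 fell by 27.5 points (-32.7 to -22.1, adjusted p 1.61e-22), with 25 of 27 CpGs lower, and XL fell by 29.4 points (-34.8 to -23.8, adjusted p 5.04e-24), with 21 of 30 lower and 9 equal. A/B differed by -10.2 points (-20.2 to -0.0338, adjusted p 0.0738) and was not called. Over CpGs listed in both libraries it was -13.6 points (adjusted p 0.0043) and in the window of 1000 bp upstream to 500 bp downstream -21.2 points (adjusted p 4.24e-17), both under the size threshold, whereas around the most upstream A/B start the difference was -31.5 points (adjusted p 5.91e-33) and was called. Around the longest XL transcript's start it was -18.3 points (adjusted p 9.05e-10), under the size threshold. In the widened main window it was -5.93 points (adjusted p 5.41e-06), also under the size threshold from a starting level of 5.93%, and around the start 119 bp before the main one it was 0. Over the genome 56.0% of start windows were called lower with the DNMT1 inhibitor, with a median difference of -32.2 points over all of them, so calls at 3 of the 4 promoters that could be tested were not far from the background. When reads were divided by the number of CpGs to allow for their dependence, none of the 3 was called (adjusted p 0.0765 for NESP, 0.192 for GNAS-AS1 and 0.0853 for XL). GNAS-AS1 was also not called within 250 bp of its start (-18.3 points over 6 CpGs) or over its island (-22.2 points), nor XL over the island nearest to its start (chr20:58852415-58852980), which covers the longest transcript's start (-21.3 points over 12 CpGs). Against the non-differentiated library, a reference added after the values were seen, the difference at NESP was -20.4 points (-26.9 to -13.6), smaller than 25 and not tested.

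With differentiation, no promoter of the locus was called, against 0.00499% of start windows over the genome. NESP differed the most, at 15.8 points higher in the DMSO library than in the non-differentiated one (9.0 to 22.5, adjusted p 0.00255 by Fisher's exact test), with 22 of 27 CpGs higher, 4 lower and 1 equal, which is under the size threshold. The difference was of similar size within 250 bp (14.7 points over 6 CpGs), where fewer reads gave an adjusted p of 0.748. After scaling the reads down by the CpG number the adjusted p was 1 at the same 15.8 points. Over more CpGs the NESP difference was smaller. In the window of 1000 bp upstream to 500 bp downstream it was 10.45 points over 33 CpGs (adjusted p 0.021 by Fisher's exact test). In the island that covers the NESP coding exon (chr20:58839771-58842323), the 131 CpGs read 54.2% in the non-differentiated and 57.8% in the DMSO library. That was a difference of 3.53 points (adjusted p 0.178 by Fisher's exact test). GNAS-AS1 differed by -2.10 points (-8.0 to 3.82), XL by 1.86 (-4.26 to 7.97) and A/B by -4.81 (-14.7 to 5.38), with adjusted p of 0.933, 0.969 and 0.896.

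With the EED inhibitor, no promoter of the locus was called either, against 0.0150% of start windows over the genome. NESP differed from the DMSO library by -5.73 points (-11.9 to 0.546, adjusted p 0.429 by Fisher's exact test), GNAS-AS1 by 0.664 (-5.23 to 6.55) and XL by 0.715 (-5.35 to 6.77), the last 2 with adjusted p of 1. The NESP value varied with the CpGs used: it was -21.7 points over the 6 CpGs within 250 bp (adjusted p 0.182), -8.93 over the 37 CpGs listed in both libraries (adjusted p 0.0519), and 0.313 over the 131 CpGs of its island. Against the non-differentiated library it was 10.1 points (3.29 to 16.8), not tested. GNAS-AS1 turned direction with the CpGs used, at -15.2 points within 250 bp (adjusted p 0.218), -4.58 in the window of 1000 bp upstream to 500 bp downstream and -3.50 over CpGs listed in both libraries. A/B differed by -14.3 points (-24.2 to -4.24, adjusted p 0.131), with 11 of 14 CpGs lower, 1 higher and 2 equal. Against the non-differentiated library A/B was at -19.1 points (-27.7 to -9.98), not tested. Around the most upstream A/B start the difference from the DMSO library was 2.00 points (adjusted p 0.928).

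The annotation gives 78 distinct transcript starts in the locus, of which 68 had at least 5 CpGs to test and many share CpGs. Of the 68, 45 were called lower and none higher with the DNMT1 inhibitor, beside the 56.0% of all start windows. None was called in either direction with differentiation or with the EED inhibitor.

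Between the promoter windows, average levels differed from stretch to stretch, and single 1 kb windows varied within each. Upstream of the NESP window, 349 CpGs read 73.1% in the non-differentiated, 71.6% in the DMSO, 20.8% in the DNMT1 inhibitor and 71.04% in the EED inhibitor library. Between the NESP and GNAS-AS1 windows 194 CpGs read 57.5%, 55.9%, 22.8% and 56.6%, and between the GNAS-AS1 and XL windows 54 CpGs read 32.5%, 37.4%, 14.4% and 31.2%. From the XL to the A/B window 416 CpGs read 59.4%, 58.7%, 13.7% and 60.5%. Between the A/B and main windows 21 CpGs read 7.19%, 9%, 2.05% and 9.23%. Downstream of the main window, in the part of GNAS after its main start, 293 CpGs read 87.4%, 86.7%, 20.01% and 85.9%. In the non-differentiated, DMSO and EED inhibitor libraries the stretch downstream of the main window was thus the highest of these 6. The stretch before the main window was the lowest of them there. In the DNMT1 inhibitor library the stretch between the NESP and GNAS-AS1 windows was the highest instead, at 22.8%.

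**Figure D3:**
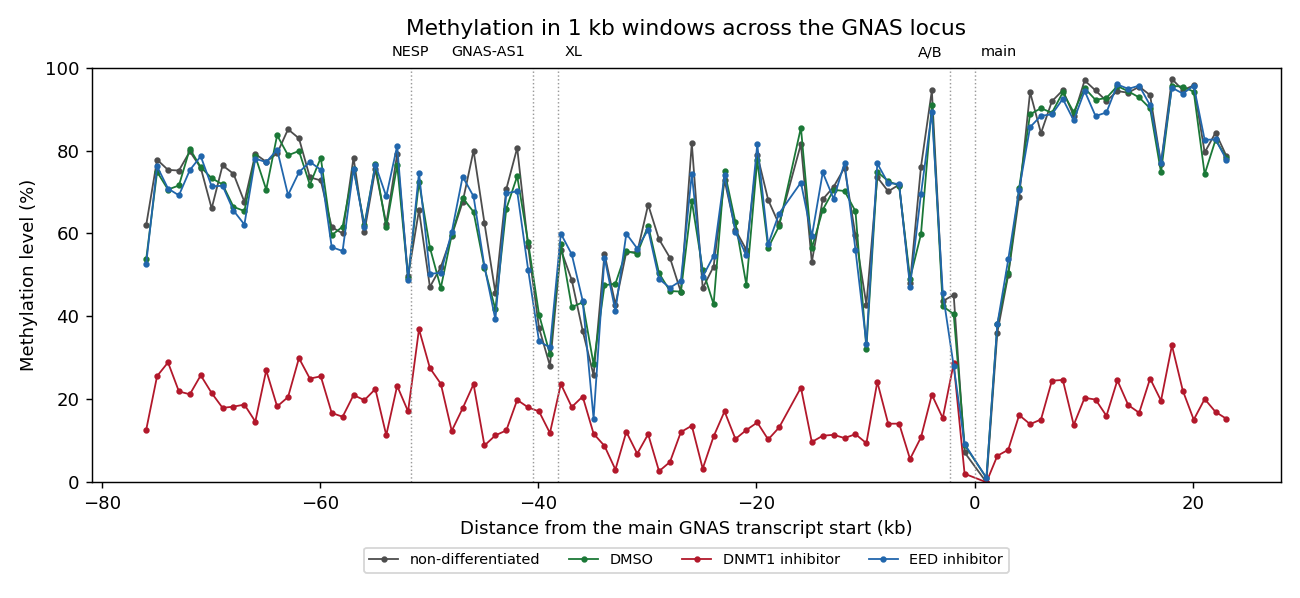
Lines join the methylation levels in percent of 1 kb windows in each of the 4 libraries, against distance in kb from the main GNAS transcript start, with dotted lines at the 5 starts. The non-differentiated, DMSO and EED inhibitor libraries run close together, with a dip to about the level of the DNMT1 inhibitor library just around the main start, and the DNMT1 inhibitor library lies below the DMSO library in all 98 windows.

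In 1 kb windows with at least 3 shared CpGs, 98 could be tested in the locus. With the DNMT1 inhibitor all 98 were lower than with DMSO and 88 were called lower, against 81.3% of windows over the genome, with a median difference of -50.1 points in the locus and -42.4 over the genome. With differentiation none of the 98 was called, against 0.00115% over the genome. 57 were lower and 41 higher, from -16.2 to 9.50 points, and the lowest adjusted p was 0.0181. With the EED inhibitor none was called, against 0.0326%. 50 were lower and 48 higher, from -13.2 to 12.7 points, with a lowest adjusted p of 0.0409.

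Sequence-defined CpG islands (500 bp or longer, a GC share from 0.55 up, and CpGs at 0.65 or more of the number expected) numbered 8 in the locus. The island at the GNAS-AS1 start (chr20:58850876-58851377) read 46.8%, 44.8%, 22.6% and 45.4% over 20 CpGs. The next island (chr20:58851465-58852394), between the GNAS-AS1 and XL starts, read 30.0%, 35.9%, 13.9% and 29.4% over 48 CpGs. The island that spans both A/B and the main promoter (chr20:58888160-58893004) read 29.3%, 25.6%, 11.6% and 25.4%, but only 61 of its 520 CpGs were listed in all 4 libraries. An island inside the transcribed unit with no promoter window in it (chr20:58882072-58882616) read 73.6%, 75.5%, 23.6% and 76.6% over 20 CpGs, so not every island of the locus was in the mid range. All 8 islands together read 43.5%, 46.7%, 20.97% and 46.3%, and the sequence outside them 73.6%, 71.7%, 17.8% and 71.5%. Islands were thus lower than the surrounding sequence in the non-differentiated, DMSO and EED inhibitor libraries and higher than it in the DNMT1 inhibitor library, with intervals that did not overlap in any library. With CpGs of at least 20 reads alone, 38 in islands, the last of these turned: the DNMT1 inhibitor library read 14.6% in islands and 16.8% outside. A looser island rule (200 bp, 0.5 and 0.6) gave a smaller gap, at 60.1% inside and 69.97% outside in the DMSO library. With that rule and at least 20 reads together, a setting added after the values were seen, the intervals of inside and outside overlapped in every library but the DNMT1 inhibitor one, and the non-differentiated library read 71.8% inside and 71.5% outside.

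**Figure D4:**
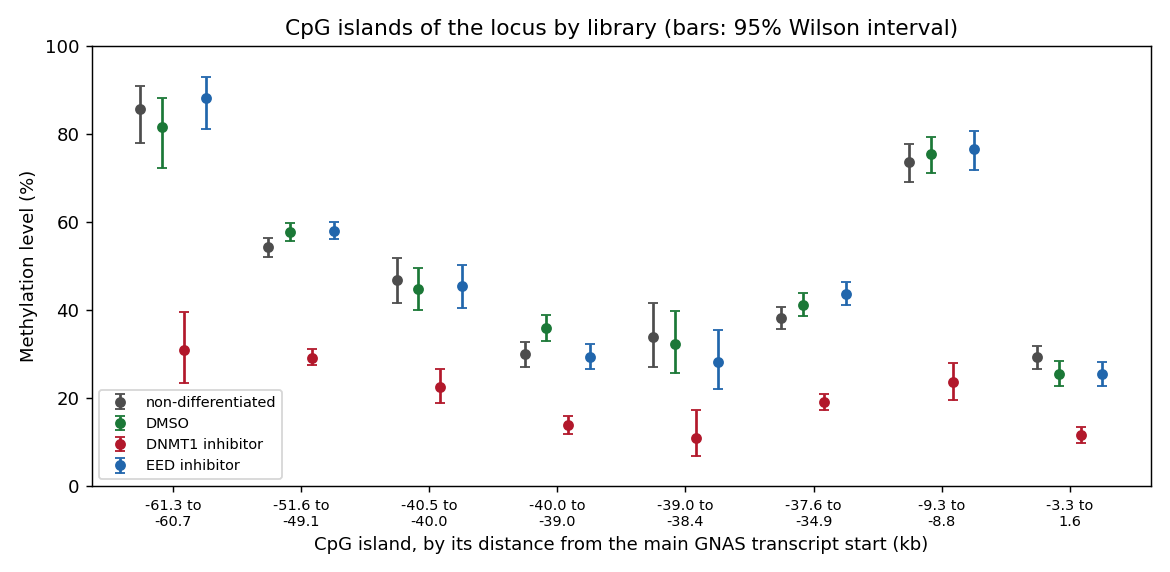
Points are methylation levels in percent of the 8 CpG islands of the locus in each of the 4 libraries, placed by distance in kb from the main GNAS start, with bars for the 95% Wilson interval. Without the DNMT1 inhibitor the islands near NESP, GNAS-AS1, XL and A/B lie between 25.4% and 58.1%, and the islands at -61.3 and -9.3 kb lie above 73%.

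The level kept with the DNMT1 inhibitor, meaning its level as a percent of the DMSO level, was set beside that of all windows of the genome in the same 20-point class of non-differentiated level. The windows with at least 5 CpGs around starts that read 40% to 60% in the non-differentiated library kept a median of 21.95% (interquartile range 16.2% to 29.0%, 24989 windows). NESP kept 41.1% (95% interval of the ratio, counting error only, 34.3% to 49.3%), GNAS-AS1 45.2% (38.2% to 53.5%), XL 42.4% (35.6% to 50.6%) and A/B 73.5% (54.1% to 99.9%). All 4 lay above that interquartile range, as did the window around the most upstream A/B start, at 33.1% (27.3% to 40.2%). Outside the promoter windows the values varied. Between the NESP and GNAS-AS1 windows 40.9% (38.5% to 43.4%) was kept, between the GNAS-AS1 and XL windows 38.4% (32.7% to 45.2%) and in the island of the XL coding exon 46.3% (41.1% to 52.2%). From XL to A/B 23.3% (22.2% to 24.5%) was kept. Downstream of the main window, which read 87.4% in the non-differentiated library, it was 23.1% (22.1% to 24.1%). In that class of 80% to 100%, 1 kb windows of the genome kept a median of 28.8% (interquartile range 22.6% to 35.9%). In the class of 20% to 40% they kept 17.9% (12.2% to 25.2%). That class holds the stretch between the GNAS-AS1 and XL windows and the island of the XL coding exon. In the class of 40% to 60% they kept 21.1% (15.6% to 27.8%).

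The 1 kb windows of the locus were also set beside the genome by their number of CpGs. Of those in the class of 40% to 60%, the 5 with at least 20 CpGs kept a median of 43.0%, against 26.4% for such windows over the genome. The 20 with 3 to 19 CpGs kept a median of 19.6%, against 20.9% over the genome. The 3 dense windows at 20% to 40% kept a median of 42.2%, against 23.2%. The 5 at 60% to 80% kept a median of 32.3%, against 31.1%, and the 2 at 80% to 100% kept 28.8%, against 34.0%. The division at 20 CpGs was chosen after seeing the values, and these medians are a description.

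**Figure D5:**
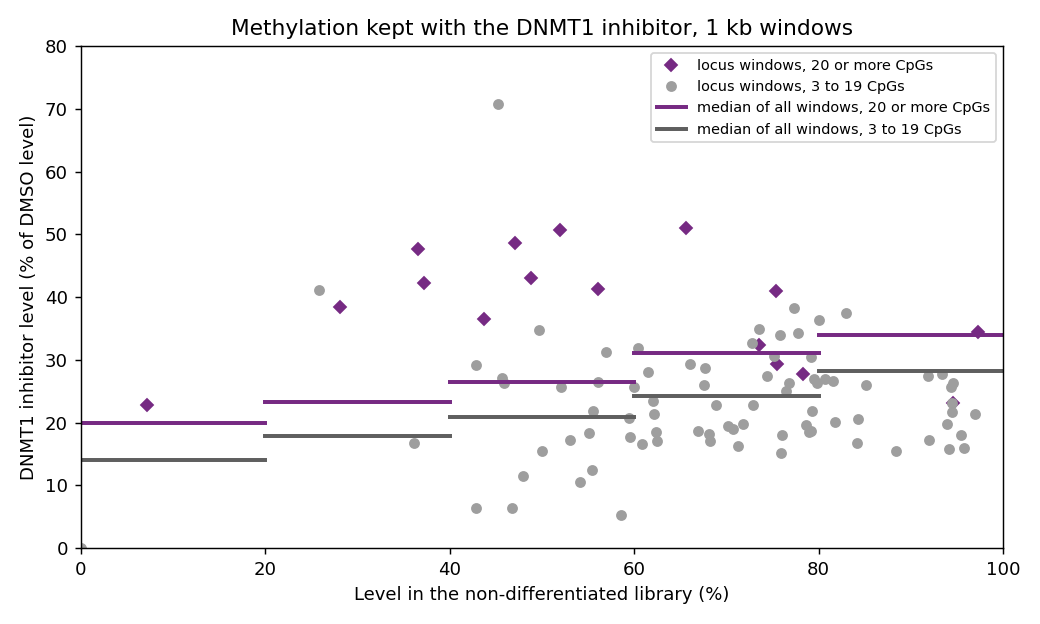
Each point is a 1 kb window of the locus, with its level in the non-differentiated library in percent on the x axis and its DNMT1 inhibitor level as a percent of its DMSO level on the y axis. Horizontal lines are medians over windows of the genome in each 20-point class. In the class of 40% to 60% the locus windows with 20 or more CpGs (median 43.0%) lie above the line for genome windows with 20 or more CpGs (26.4%).

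The hexamer TGCCGC, which the zinc finger protein ZFP57 binds at imprinted regions when its CpG is methylated, was searched on both strands. It occurred 23 times in the locus. The NESP and GNAS-AS1 windows held 1 match each, the main window 2, and the XL and A/B windows none, while 32.1% of 218307 start windows of the genome held at least 1. None of these 4 matches had a CpG listed in all 4 libraries. Of the 15 matches with such a CpG, 7 were in islands and had median levels of 46.2%, 45.0%, 23.5% and 40%. Single ones of these 7 ranged widely, from 21.1% to 58.3%, 15.4% to 85.7%, 6.67% to 64.3% and 22.7% to 86.4%. The 8 outside islands had medians of 95.9%, 92.3%, 26.4% and 95.6%. A match of letters does not show a bound site.

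The start windows whose 4 levels were most like those of each promoter, by Euclidean distance over the 4 libraries, were sought among 13268 genes. For XL the nearest was PKD1L2, at 48.7%, 50.7%, 19.4% and 51.7%, followed by ADGRL4 and CCDC8. For GNAS-AS1 they were ENSG00000269547, ZNF844 and ADGRL4, within 3.66 points. For NESP the nearest were GRID2IP, JRK and ABHD12B, at 7.64 to 8.34 points, and for A/B ZNF22, ZFP90 and NSMCE4A, at 8.46 to 13.3 points. The nearest genes of NESP and A/B were thus farther away by this measure than those of GNAS-AS1 and XL.

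Among 30 other imprinted genes, 25 had a testable start window, with a median level of 57.6% in the DMSO library. With the DNMT1 inhibitor 13 of the 25 were called lower and none higher, with a median difference of -27.0 points, beside 56.0% called and a median of -32.2 points over all start windows. MKRN3, which is normally expressed from the paternal copy, fell by 51.6 points and MEG3, a maternally expressed non-coding RNA, fell by 46.2 points. 11 of the 25 read 40% to 60% in the DMSO library, beside 14.4% of all start windows, and kept a median of 50.9%. This class was taken from the DMSO level, unlike the classes above, for which start windows at 40% to 60% in the non-differentiated library kept a median of 21.95%. Among the 25, SNRPN and SNURF share 1 window and PEG3 and ZIM2 another. None of the 25 was called with differentiation or with the EED inhibitor. Some were under the size threshold alone, namely the window of SNRPN and SNURF at -17.1 points with the EED inhibitor (adjusted p 5.01e-07 by Fisher's exact test) and ZNF331 at -11.4 and PLAGL1 at -11.8 points with differentiation.

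The genes that act with GNAS in the cyclic AMP pathway ranged widely in methylation at their starts. The list of 41 genes included receptors, G protein subunits, adenylyl cyclases, kinases and phosphodiesterases, and also CREB1, CREM, ATF1 and RIC8B. Of the 41, 29 were testable, with a median of 3.55% in the DMSO library, beside 43.2% over all start windows. The highest level was 63.1%, at ADORA2A. GNAL, the closest relative of GNAS, read 2.47%, 1.89%, 0.362% and 1.19%, and PRKAR1A, a regulatory subunit of protein kinase A, read at most 0.620%. Of the other regulatory subunits, PRKAR2A read 25.2% and PRKAR2B 0.667% in the DMSO library. With the DNMT1 inhibitor 3 of the 29 were called lower and none higher, beside the 56.0% over all start windows. A window under 25% in the DMSO library could not be called lower, and the median of the 29 was under that. The count thus cannot show whether these genes responded less than others. The adenosine receptor gene ADORA2A fell by 45.0 points, the adenylyl cyclase gene ADCY4 by 40.2 and the parathyroid hormone receptor gene PTH1R by 35.7. None of the 29 was called in the other 2 comparisons.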

How the data were processed

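The authors deposited a methylKit table per library, per the file headers, in which each line is a CpG with a coverage count and 2 percent values, for reads that kept C (methylated) and reads that turned to T. Per the submitters' processing notes the build was hg38 and the tools named include Trim Galore 0.6.7, cutadapt 4.1, Bismark, Bowtie2 2.1.0 and methylKit. Removal of duplicate reads is not given in the sources used here, and duplicates left in would make reads less independent than the tests assume. Strands are merged and each coverage count is at least 10, so CpGs with fewer reads are not in the tables.

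Methylated reads were coverage times the percent with C, rounded, which came out whole within 0.0005 of the coverage for 100% of lines. CpGs listed in all 4 libraries were used (672115916 to 741744952 reads per library over all listed CpGs), and levels weigh CpGs by their reads. Two-sided Fisher's exact tests with Benjamini-Hochberg adjustment covered all transcript start windows of the genome with at least 5 such CpGs and all 1 kb windows with at least 3. On simulated reads, drawn independently of each other, 99.5% to 100% of 200 lowered start windows were called and 0 unchanged ones. Only windows whose level allowed a drop well above the size threshold were lowered. This checks the calling steps alone. It cannot give the power or the rate of false calls for the real reads, which share fragments. The limit given for 0 methylated reads is 3 reads of the total.

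The main start is that of the MANE Select transcript, NESP that of the MANE Plus Clinical transcript, XL the start shared by most coding transcripts of its cluster, and A/B the start shared by most transcripts 1 to 5 kb upstream of main. For A/B 2 starts tied, and the one with most other starts within 25 bp was taken. The genes most like a promoter were the 3 nearest start windows with at least 10 CpGs. From each gene list the text names called genes. GNAL, PRKAR1A, PRKAR2A, PRKAR2B, CD14, ZNF331, PLAGL1 and the 2 pairs of genes with shared windows were chosen afterwards. With the DNMT1 inhibitor 3 of 6 markers of other blood lineages and 1 of 6 testable erythroid markers, SLC4A1, were called lower, beside 56.0% of all start windows. Windows under 25% in the DMSO library could not be called lower, and the medians of both marker lists were under that. The members and lists were chosen with earlier results of these data known. Alternatives varied the coverage minimum, CpG set, window, weighting, test counts, thresholds, reference library, island rule and, after the data were seen, the XL and A/B starts and the reference library of the promoter differences. Python 3.11.15, numpy 2.4.6, scipy 1.17.1, pandas 2.3.3 and numba 0.67.0 were used.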

Additional observations from a re-analysis of the deposited data

How the results depend on the processing

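Of 179 values recomputed under another setting, 130 were counted as unchanged. For differences and levels this meant the same direction and side of the threshold or, where untested, a value within the counting interval. Another threshold, or scaling reads down by the CpG number, cannot alter the size of a promoter difference, so only its call could change there. Some counts of called windows that moved, given below, were also among the 130. The lower NESP level with the DNMT1 inhibitor was called under every planned setting with a test except reads divided by the number of CpGs (-36.2 points, adjusted p 0.0765), where GNAS-AS1 (-27.5 points, adjusted p 0.192) and XL (-29.4 points, adjusted p 0.0853) also lost their calls. GNAS-AS1 was not called within 250 bp (-18.3 points, 6 CpGs) or over its island (-22.2), nor XL over its island (-21.3) or at the upstream start (-18.3), each for size. A/B gained a call at its upstream start (-31.5). At 10 points the NESP difference with differentiation was called (15.8), while with fewer reads, within 250 bp (14.7) or scaled down by the CpG number (15.8), its adjusted p was 0.748 and 1. Over more CpGs it was smaller, at 10.45 with 1000 bp upstream (adjusted p 0.021 by Fisher's exact test) and 3.53 over its island (adjusted p 0.178). Directions that turned were of uncalled differences. With differentiation these were GNAS-AS1 at 1000 bp upstream (2.47) and XL at 1000 bp upstream (-0.156), over its island (-1.63) and at the upstream start (-1.79). With the EED inhibitor, over CpGs listed in both libraries, GNAS-AS1 was at -3.50 and XL at -0.164. At 1000 bp upstream GNAS-AS1 was at -4.58 and A/B at 0.819, and within 250 bp GNAS-AS1 was at -15.2. Over islands NESP was at 0.313 and XL at -4.08, and A/B at its upstream start at 2.00. The cause was not tested. Windows called lower with the DNMT1 inhibitor numbered 142 of 164 at 500 bp and 45 of 49 at 2 kb, as fewer or more windows fit the locus. At 1 kb the main count of 88 of 98 fell to 76 of 98 once the reads were scaled down by CpG number. It was 73 of 77 for CpGs of at least 20 reads. These last 2 counts were among those taken as unchanged. Under the looser island rule the island level in the DMSO library was 60.1%. Against the non-differentiated library, added after seeing the data and untested, NESP was at -20.4 in the DNMT1 inhibitor library and at 10.1 in that of the EED inhibitor. In the same order, GNAS-AS1 was at -29.6 and -1.44, XL at -27.5 and 2.58, and A/B at -15.0 and -19.1. With at least 20 reads in all 4 libraries no promoter had the 5 CpGs a test needs, A/B had none within 250 bp, and the main promoter had none within 500 bp. Depth limits the main promoter most, with no CpG listed there, and then A/B, at 146 to 234 reads. No paired analysis was possible because each group has 1 library.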
